A study of Mus musculus with 7 samples.

Results

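The receptor tyrosine kinases described here are the receptors for PDGF (Pdgfra, Pdgfrb), for EGF and neuregulins (Egfr, Erbb2, Erbb3, Erbb4), for FGF (Fgfr1, Fgfr2, Fgfr3) and for HGF (Met). They were chosen by symbol, and all 10 are among the 23282 entries of the deposited count table. Adult C57BL/6 mice bearing glioblastoma gave tumour cells sorted for the red fluorescent protein tdTomato and 7 libraries, 4 of the genotype FYN-KO (Fyn-KO) and 3 of the genotype WT. The groups share strain, disease and sort, and the cells of each mouse were sorted and made into a library separately. Not given in the sources used here are the driver of tdTomato, the way the tumours arose and the cells in which Fyn was removed. Each library was made by QuantSeq, which reads the 3' end of messenger RNA, so 1 tag stands for 1 read near a transcript's end whatever the transcript's length. As labelled, the comparison asks which transcripts differ between glioblastoma cells with and without Fyn, a tyrosine kinase of the Src family.

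These receptors cross the cell membrane, bind a growth factor outside the cell, pair up and phosphorylate tyrosines on each other inside it. Adaptor proteins dock there and pass the signal to the Ras-ERK and PI3-kinase pathways, while feedback inhibitors and ubiquitin ligases end it. In the brain, Pdgfra marks oligodendrocyte progenitors and Pdgfrb marks the mural cells of vessels. In human gliomas, the genes of PDGFRA, EGFR and MET are among those that are amplified or mutated.

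The libraries differed widely outside these genes. They held 8976745 to 10396507 counts in Fyn-KO and 11911864 to 16371244 in WT, and 13535 to 14548 genes had a count in Fyn-KO libraries against 7723 to 9924 in WT libraries. Of the genes that reached 50 counts per 1000000 (CPM) in 1 library, 0.0199% had no count in another Fyn-KO library and 33.9% had none in another WT library. At 200 CPM the shares were 0% and 11.4%. Fyn itself stood at 105, 106, 74.5 and 190 CPM in Fyn-KO libraries, against 1039, 719.9 and 1604 CPM in WT. Its log2 fold change was -3.43 ± 0.51 (edgeR adjusted p = 0.0121), so tags counted for Fyn were fewer but not absent under the Fyn-KO label. The last 1000 bases of Fyn overlap the gene Gm16365, and the strand of counting was not given. Tags of one can therefore be counted for the other. The 6 markers of oligodendrocyte progenitors summed to 64.9 to 795 CPM in Fyn-KO and to 7872 to 11690 CPM in WT. Of these 6, 5 were lower in Fyn-KO (83.3%, against 3.51% of all tested genes). Of the 6 oligodendrocyte markers, 5 were tested and 3 fell (60%, against 3.51% of all tested genes), and 5 fell without WT replicate 2. Of the 6 microglial markers, 5 were tested and 2 rose (40%, against 19% of all tested genes), and 4 rose without WT replicate 3. P2ry12 was not tested, with 27, 0, 0 and 0 counts in Fyn-KO libraries and no count in WT. Markers of steroid-producing cells, 8 genes outside the labelled cell type, summed to 23325 to 27603 CPM in Fyn-KO and 8.12 to 286 CPM in WT, and Cyp17a1, Cyp19a1 and Nr5a1 had no count in WT. All 8 were tested, and with 1 library left out 4 to 7 rose. With all libraries 4 rose (50%, against 19% of all tested genes) and 4 did not pass. Those that did not pass were Cyp11a1, Hsd3b1, Star and Fdx1, the most abundant of the 8 in Fyn-KO. These markers go against the labelled cell type in the Fyn-KO libraries, so the identity of the cells in them is in doubt, and every difference below is one between the libraries labelled Fyn-KO and those labelled WT. Loss of Fyn and a different make-up of the sorted cells cannot be told apart.

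Among the 8 receptors with enough counts to test, Pdgfra and Egfr fell in Fyn-KO, Fgfr2 and Erbb2 rose, and Pdgfrb, Fgfr1, Fgfr3 and Met did not pass. Erbb3 and Erbb4 had no count in any library and were not tested. The edgeR quasi-likelihood test called 2 of 8 lower and 2 of 8 higher at a Benjamini-Hochberg adjusted p under 0.05, against 3.51% of the 13122 tested genes called lower and 19% called higher. The median log2 fold change (Fyn-KO minus WT) of the 8 was -0.60, and that of all tested genes was 0.45. When each of the 7 libraries was left out in turn, 2 receptors were lower every time and 1 to 3 were higher.

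**Figure D1:**
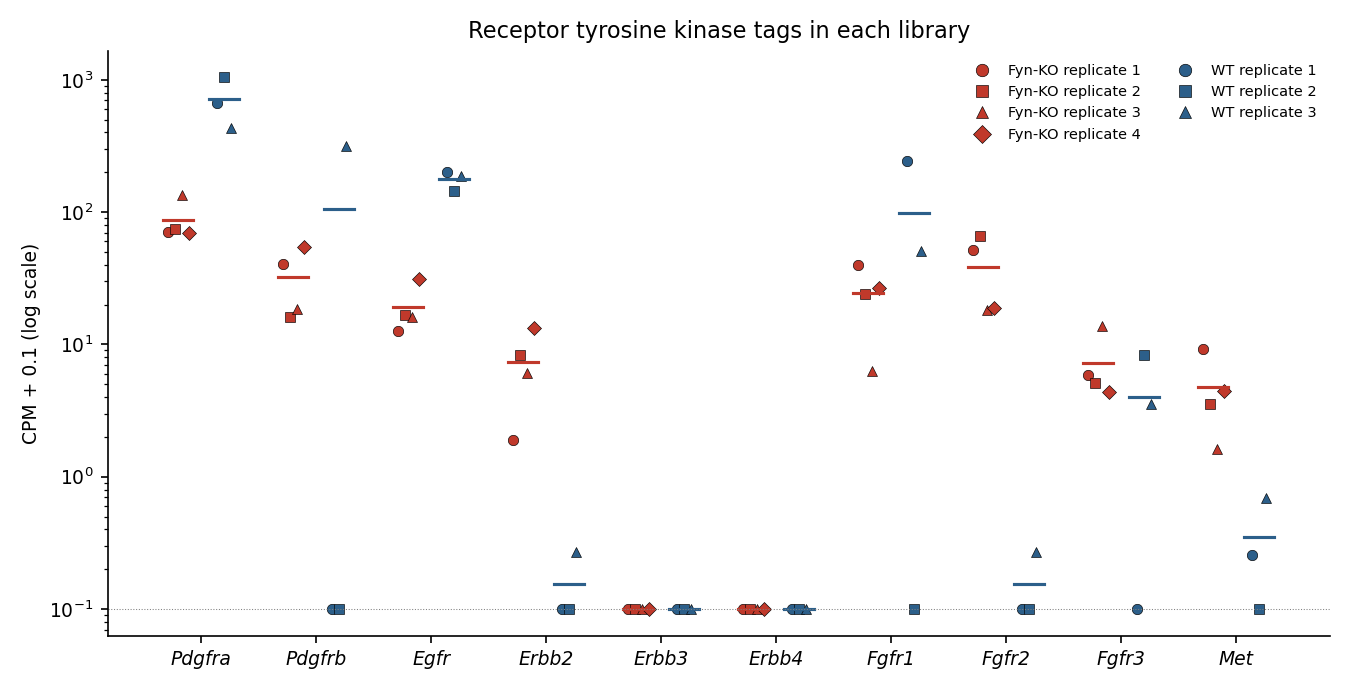
Tags of the 10 receptors in each library, as CPM plus 0.1 on a log axis. Points are single libraries, short lines are group means, and the dotted line marks 0 CPM. Pdgfra and Egfr lie lower in every Fyn-KO library than in any WT library, Erbb2, Fgfr2 and Met lie higher, and Erbb3 and Erbb4 lie at 0 throughout.

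The promoters of the receptors that fell are shown because both genes moved in the same direction. Each is the 300 bases around the start of transcription (250 before and 50 after), from RefSeq on GRCm38.p6, plus strand, 5' to 3'. The Pdgfra window is chr5:75152001-75152300 and the Egfr window is chr11:16751953-16752252. Capitals mark a GC box, GGGCGG on either strand.
Pdgfra: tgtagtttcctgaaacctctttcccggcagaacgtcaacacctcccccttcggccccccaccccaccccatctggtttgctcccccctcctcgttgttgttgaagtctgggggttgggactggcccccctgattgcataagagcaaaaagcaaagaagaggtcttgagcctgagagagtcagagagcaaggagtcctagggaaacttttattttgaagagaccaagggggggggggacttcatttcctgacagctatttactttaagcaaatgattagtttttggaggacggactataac
Egfr: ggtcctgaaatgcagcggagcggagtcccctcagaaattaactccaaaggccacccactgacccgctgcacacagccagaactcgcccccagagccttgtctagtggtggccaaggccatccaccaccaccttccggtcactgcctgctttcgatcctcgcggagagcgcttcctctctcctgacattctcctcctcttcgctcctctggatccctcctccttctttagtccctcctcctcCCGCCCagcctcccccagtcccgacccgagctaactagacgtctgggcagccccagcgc
The Egfr window held 1 GC box and the Pdgfra window none, and 35.7% of the 32851 windows in the same table hold at least 1. Neither window held CAGCTG (an E-box, in 16.3% of windows), ACAAAG (a SOX motif, in 18.7%) or CGGAAGT and its reverse complement (an ETS motif, in 6.42%), all read on both strands, so the GC box overlaps no other match. The windows of Erbb2 and Fgfr2, which rose, held none of the 4 motifs. Of the 10 receptors, 7 were found in that table by symbol, and the GC content was 51% for Pdgfra, 62.3% for Egfr, 66% for Erbb2 and 43.7% for Fgfr2, against a median of 52.7% over all windows.

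Pdgfra encodes the receptor that binds PDGF-A and other PDGF dimers (ENSMUSG00000029231.15, GRCm38 chromosome 5, 75152292 to 75198215, plus strand). It stood at 70.4, 74.0, 134 and 69.2 CPM in Fyn-KO libraries, against 663, 1043 and 429 CPM in WT. All 4 Fyn-KO libraries lay below the lowest WT library, and among them the third stood apart as the highest. The mean was 86.9 ± 31.5 CPM in Fyn-KO (SD, n = 4) and 711.5 ± 309.9 CPM in WT (n = 3), and the log2 fold change was -3.00 ± 0.42 (SE, edgeR adjusted p = 0.0121). It stayed between -2.83 and -3.25 with any 1 library left out, with adjusted p of 0.00486 to 0.0238. The same Fyn-KO library 3 also had the highest sum of oligodendrocyte progenitor markers in its group, 795 CPM against 64.9 to 347 CPM in the other Fyn-KO libraries.

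Fibroblasts and other stromal cells also express Pdgfra, and 5 fibroblast markers summed to 1761 to 2661 CPM in Fyn-KO and to 1.72, 128 and 797 CPM in WT. Of these 5 markers, Lum and Dcn rose (40%, against 19% of all tested genes) and 3 did not pass. The part of either cell type in the Pdgfra counts was not tested, and in bulk samples fewer cells of a type and less RNA per cell cannot be told apart. Counts of Pdgfra per count of Olig2, a transcription factor of oligodendrocyte progenitors, are free of any scaling between libraries. They were 3.06, 15.1, 0.920 and 0.795 in Fyn-KO and 0.186, 0.351 and 0.293 in WT, so the groups did not overlap. The difference in log2 of that ratio was 3.17, with an exact two-sided permutation p of 0.0857 over the 35 splits (0.129 after Benjamini-Hochberg adjustment over 3 ratios).

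**Figure D2:**
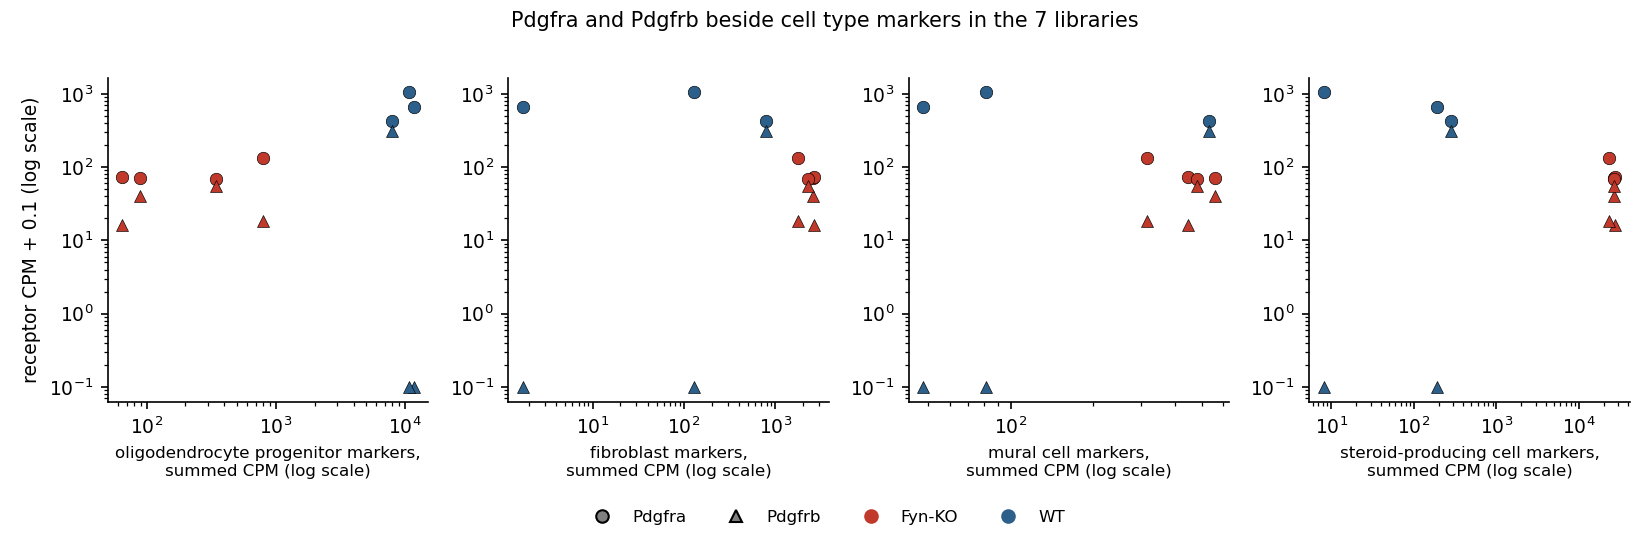
CPM plus 0.1 of Pdgfra (circles) and Pdgfrb (triangles) in each library, on a log axis, against the summed CPM of 4 marker lists, also on log axes. Red points are Fyn-KO and blue points WT. Pdgfrb had counts in 1 WT library alone. That library also had the highest fibroblast, mural cell and steroid-producing cell sums of its group, and the lowest oligodendrocyte progenitor sum.

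Egfr encodes the receptor of EGF and TGF-alpha (ENSMUSG00000020122.16, chromosome 11, 16752203 to 16918158, plus strand). It stood at 12.6, 16.6, 16.1 and 31.2 CPM in Fyn-KO libraries, against 202, 144 and 187 CPM in WT. The groups did not overlap, and the 3 WT libraries were closer to one another for Egfr than for the other tested receptors with 50 CPM or more in WT. The mean was 19.1 ± 8.24 CPM in Fyn-KO libraries, against 178 ± 30.2 CPM in WT (SD, n = 4 and 3), 9.29 times lower in Fyn-KO, with a log2 fold change of -3.33 ± 0.68 (edgeR adjusted p = 0.0121). With 1 library left out it ranged from -3.09 to -3.66 (adjusted p 0.00530 to 0.0321).

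The means of Pdgfra and Egfr were 8.19 and 9.29 times lower in Fyn-KO. The count of Pdgfra per count of Egfr was 5.60, 4.45, 8.33 and 2.22 in Fyn-KO and 3.28, 7.25 and 2.29 in WT, and these ranges overlapped. The log2 difference of that ratio was 0.29 (exact permutation p = 0.600, adjusted 0.600), which does not show that the genes changed alike. Egfr per count of Olig2 was 0.546, 3.39, 0.110 and 0.359 in Fyn-KO and 0.0565, 0.0484 and 0.128 in WT. Its log2 difference was 2.89 (exact permutation p = 0.0857, adjusted 0.129), and Fyn-KO replicate 3 lay within the WT range.

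Fgfr2, an FGF receptor (ENSMUSG00000030849.18, chromosome 7, minus strand, with a gene model from 130162451 to 133123350), was nearly absent from WT libraries. It stood at 51.5, 66.0, 18.2 and 18.7 CPM in Fyn-KO, that is 483, 686, 166 and 168 counts, and at 0, 0 and 2 counts in WT. Each Fyn-KO library was above each WT library, and Fyn-KO replicates 1 and 2 held more than the other two. The ratio of pooled counts, Fyn-KO over WT, was 814 with a 95% exact interval of 225 to 6729.8, which covers counting error only. edgeR gave an adjusted p of 0.0184 and a fitted log2 fold change of 8.94, which depends on how 0 counts are treated. Fgfr2 did not pass without Fyn-KO replicate 1 or 2 (adjusted p = 0.0562 and 0.0563, log2 fold change 8.76 and 8.55).

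Erbb2 encodes the member of the EGF receptor family that has no known ligand of its own and pairs with the others (ENSMUSG00000062312.5, chromosome 11, 98412470 to 98437716, plus strand). It had 17, 86, 55 and 118 counts in Fyn-KO and 0, 0 and 2 in WT, or 1.81, 8.27, 6.02 and 13.1 CPM in Fyn-KO libraries, against 0, 0 and 0.168 CPM in WT. The groups did not overlap, although the Fyn-KO libraries spanned 1.81 to 13.1 CPM. The ratio of pooled counts was 149.5 (95% exact interval 41.0 to 1241), and the edgeR adjusted p was 0.0355. Without WT replicate 1 it was 0.0675, with a fitted log2 fold change of 6.04 in place of 6.57. The last 1000 bases of Erbb2 overlap the gene Mien1, which stood at 134, 117, 122 and 148 CPM in Fyn-KO libraries, against 17.5, 169.9 and 89.3 CPM in WT. The strand of counting was not given in the labels, so tags of one can be counted for the other.

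Beside the rises of Fgfr2 and Erbb2 stands the share of genes with few or no counts in WT. Of the 2493 genes called higher in Fyn-KO, 2340 stayed under 10 counts per WT library, as these receptors do. A second fit took the 6446 genes that reached 10 counts in at least 3 Fyn-KO and 2 WT libraries, of which 2.16% were called lower and 0.807% higher. Of the 10 receptors, Pdgfra, Egfr, Fgfr1 and Fgfr3 met that rule. There Pdgfra and Egfr were again lower by the edgeR test (adjusted p = 0.0225 and 0.0477), and Fgfr1 and Fgfr3 did not pass. The part of undetected transcripts in the rises was not tested. Krt8 and Krt18, keratins of simple epithelia, rose in the same Fyn-KO libraries at 5.54 to 16.1 CPM and 5.01 to 13.6 CPM, while the lung genes Sftpa1, Sftpc and Scgb1a1 fell. Neither keratin passed when any 1 Fyn-KO library or WT replicate 1 was left out, and their edgeR adjusted p with all libraries was 0.0490 and 0.0414. Epcam, an epithelial adhesion protein of the same list, stood at 8.42 to 14.1 CPM in Fyn-KO and at 0.0783, 0 and 219 CPM in WT (adjusted p = 0.454), and Cdh1 did not pass. The 7 epithelial markers together summed to 35.1 to 62.5 CPM in Fyn-KO libraries, against 117 to 919 CPM in WT, with Sftpa1 at 0 in Fyn-KO, and the markers of steroid-producing cells summed to 23325 CPM or more in each of these Fyn-KO libraries. The part of either cell type in the Erbb2 and Fgfr2 counts was not tested.

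Pdgfrb, the receptor of PDGF-B on mural cells (ENSMUSG00000024620.11, chromosome 18, 61045150 to 61085061, plus strand), was found in all 4 Fyn-KO libraries and in 1 of 3 WT libraries. It stood at 40.3, 15.97, 18.5 and 54.6 CPM in Fyn-KO libraries, against 0, 0 and 314 CPM in WT. The WT library with 314 CPM was higher than any Fyn-KO library and the other 2 WT libraries held no count. With all libraries the log2 fold change was -2.14 ± 2.39 and did not pass (edgeR adjusted p = 0.643). Without WT replicate 3 the direction turned and the test was passed (fitted log2 fold change 11.55, adjusted p = 0.00807). In that fit no WT library held a count, so Pdgfrb was kept for testing by its Fyn-KO counts alone. The call therefore adds no support for a rise. Pdgfrb then stood at least 155-fold higher in Fyn-KO, against a mean floor of 3 counts per WT library. That bound covers counting error only, not the failure of a WT library to detect a gene that another holds.

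Markers of vessel cells varied within WT as well, and not in 1 direction. Of the 8 mural cell markers, Rgs5, Des, Vtn and Anpep were highest among WT libraries in replicate 3, while Acta2 (40.3, 53.3 and 1.34 CPM in WT), Notch3 (7.51, 0 and 0.0840 CPM) and Abcc9 (0, 4.15 and 0.168 CPM) were higher in another WT library. Rgs5 and Des, mural cell genes, stood at 43.8 to 58.9 CPM and 5.58 to 11.6 CPM in Fyn-KO, whereas in WT Rgs5 stood at 0, 0 and 38.4 CPM and Des at 0.0783, 0.122 and 289.7 CPM. Cdh5, an endothelial cadherin, stood at 61.4 to 98.6 CPM in Fyn-KO libraries, against 0, 0 and 110 CPM in WT. The 8 mural cell markers summed to 315 to 557 CPM in Fyn-KO and to 48.0, 81.0 and 533 CPM in WT. Of 7 tested, 2 were higher (28.6%, against 19% of all tested genes), and Kcnj8 was at 0 in WT. The number was 4 without WT replicate 3 and 1 with any 1 Fyn-KO library left out. The 6 endothelial markers summed to 270.15 to 327 CPM in Fyn-KO libraries, against 0.235, 19.97 and 436 CPM in WT. Of 6 tested, 1 was higher (16.7%, against 19% of all tested genes), and Emcn was at 0 in WT. The number was 5 without WT replicate 3 and 2 without WT replicate 2. WT replicate 3 was also the highest WT library for the sums of oligodendrocyte (20119 CPM), epithelial (919 CPM), fibroblast (797 CPM) and steroid-producing cell (286 CPM) markers. The part of vessel cells in the Pdgfrb counts was not tested.

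Fgfr1, an FGF receptor of many neural and stromal cells (ENSMUSG00000031565.18, chromosome 8, 25513654 to 25575718, plus strand), stood at 39.96, 24.0, 6.24 and 26.6 CPM in Fyn-KO libraries, against 243, 0 and 50.5 CPM in WT. The WT libraries lay on both sides of the Fyn-KO libraries. The mean was 24.2 ± 13.9 CPM in Fyn-KO libraries, against 97.9 ± 128 CPM in WT (SD, n = 4 and 3), and the log2 fold change of -2.14 ± 1.84 did not pass (edgeR adjusted p = 0.524). It was -0.51 without WT replicate 1 (adjusted p = 0.877) and -2.73 without WT replicate 2, the library with no count (adjusted p = 0.0519).

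Fgfr3, an FGF receptor of astrocytes and neural progenitors (ENSMUSG00000054252.18, chromosome 5, 33721674 to 33737068, plus strand), stood at 5.75, 5.002, 13.6 and 4.23 CPM in Fyn-KO libraries, against 0, 8.25 and 3.44 CPM in WT. The groups overlapped, and the log2 fold change of 0.94 ± 1.56 did not pass (edgeR adjusted p = 0.771). Fyn-KO replicate 3 was the highest library, as it was for Pdgfra within Fyn-KO. The 6 astrocyte markers summed to 417 to 601 CPM in Fyn-KO and 1924 to 3243 CPM in WT. Of 5 tested, 2 fell (40%, against 3.51% of all tested genes). Aqp4 was not tested, with no count in Fyn-KO and 1569, 0 and 1 counts in WT libraries. Without WT replicate 3, 3 fell and 1 rose. Gja1, another of the 6, made up most of the sum in each Fyn-KO library and lay the other way. It stood at 512, 471, 275 and 531 CPM in Fyn-KO libraries, against 0.0783, 12.2 and 214 CPM in WT. Those groups did not overlap, but Gja1 did not pass with all libraries (edgeR adjusted p = 0.473).

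Met, the receptor of HGF (ENSMUSG00000009376.15, chromosome 6, 17463800 to 17573980, plus strand), was low in every library. It had 86, 36, 14 and 39 counts in Fyn-KO and 2, 0 and 7 in WT, or 9.16, 3.46, 1.53 and 4.34 CPM in Fyn-KO libraries, against 0.157, 0 and 0.588 CPM in WT. The groups did not overlap, but the log2 fold change of 3.86 ± 1.57 did not pass the edgeR test (adjusted p = 0.124, and 0.0785 to 0.232 with 1 library left out). Met is the fifth tested receptor without overlap between groups, next to Pdgfra, Egfr, Erbb2 and Fgfr2. Of all tested genes, 7.32% lay without overlap lower in Fyn-KO and 30.1% lay so higher, 37.4% together.

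Erbb3, a neuregulin receptor whose own kinase is impaired (ENSMUSG00000018166.8, chromosome 10), and Erbb4, a neuregulin receptor of neurons (ENSMUSG00000062209.15, chromosome 1), had no count in any of the 7 libraries. By counting error alone, a count of 0 allows up to 3 counts. That is 0.289 to 0.334 CPM per Fyn-KO library and 0.183 to 0.252 CPM per WT library. WT libraries also lacked genes that another WT library held at 50 CPM or more, so 0 in WT is a weaker bound. They are 2 of the 6683 entries of the table without a count.

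**Figure D3:**
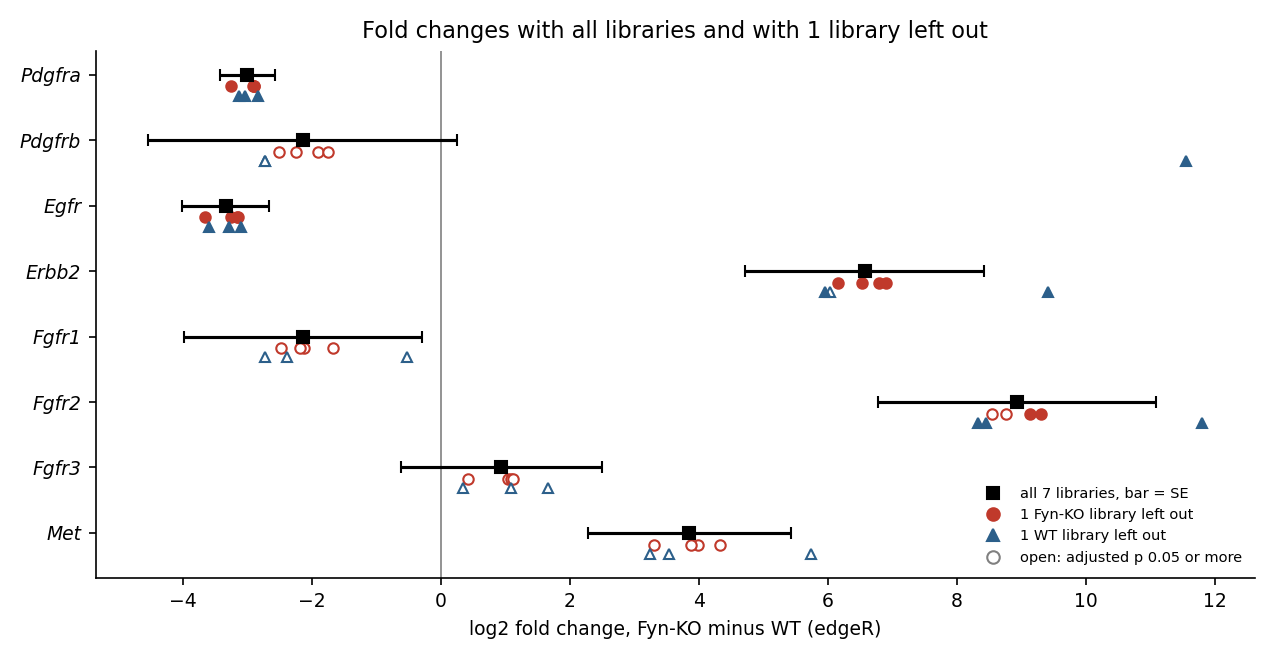
Log2 fold change (Fyn-KO minus WT, edgeR) of the 8 tested receptors. Black squares with SE bars use all 7 libraries, red circles leave out 1 Fyn-KO library, blue triangles leave out 1 WT library, and open circles or triangles have an adjusted p of 0.05 or more. Pdgfra and Egfr stay filled and near -3 throughout, and Pdgfrb changes sign without WT replicate 3.

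Summed over the 10 receptors, the tags made up 213 to 231 CPM in Fyn-KO libraries (220.2 ± 8.44, SD, n = 4) and 985 to 1195 CPM in WT libraries (1096 ± 105, n = 3). The PDGF receptors together had 119 ± 26.2 CPM in Fyn-KO libraries, against 816 ± 200.2 CPM in WT, and the EGF receptor family had 26.4 ± 12.7 CPM in Fyn-KO libraries against 178 ± 30.2 CPM in WT. The FGF receptors together had 69.9 ± 30.6 CPM in Fyn-KO libraries, against 102 ± 124 CPM in WT. Pdgfra gave 30.4, 34.7, 62.6 and 31.2% of the receptors' tags in Fyn-KO and 59.8, 87.3 and 43.5% in WT, and Fgfr2 gave 22.2, 30.9, 8.49 and 8.43% in Fyn-KO and at most 0.0171% in WT. Counts were found for 8 receptors in each Fyn-KO library and for 4, 3 and 8 receptors in the WT libraries.

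Few ligands of these receptors could be tested, and with all 7 libraries those that passed were higher in Fyn-KO, as 19% of all tested genes were, while 3.51% were lower. Of the 4 PDGF genes, 3 were tested, 1 rose and 2 did not pass, and 2 rose without WT replicate 2 while 1 fell without WT replicate 1. Pdgfc, a ligand of Pdgfra, reached 8.52 ± 4.09 CPM in Fyn-KO libraries and was without counts in WT, at least 38.1-fold higher (edgeR adjusted p = 0.0121). This bound, like the others below for genes without counts in WT, covers counting error only. Of the 7 EGF-like ligands, 3 were tested, 1 rose (2 without WT replicate 2) and 2 did not pass. Ereg, epiregulin, reached 13.9, 2.69, 5.58 and 1.67 CPM in Fyn-KO libraries and was without counts in WT, at least 26.6-fold higher (adjusted p = 0.0142). Of the 4 neuregulins only Nrg2 was tested, at 2.99 ± 3.62 CPM in Fyn-KO libraries, against 16.1 ± 27.9 CPM in WT (adjusted p = 0.610). Of the 18 FGF genes, 12 had no count and 2 were tested, and neither passed. Fgf18 stood nearest to the threshold, at 2.80 ± 1.92 CPM in Fyn-KO libraries, against 0.0541 ± 0.0469 CPM in WT (adjusted p = 0.0805). Without Fyn-KO replicate 4, 1 of 2 tested FGF genes rose, and without Fyn-KO replicate 1, 2 or 3 no FGF gene was tested.

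Pdgfa, Tgfa and Hgf were chosen for naming after their values were seen, and none of the 3 passed the test. Pdgfa, the PDGF-A ligand of Pdgfra, stood at 23.1, 17.6, 25.7 and 9.69 CPM in Fyn-KO libraries, against 0.0783, 296 and 201 CPM in WT (edgeR adjusted p = 0.231). Tgfa, a ligand of Egfr, stood at 2.13, 1.44, 11.9 and 3.34 CPM in Fyn-KO libraries, against 0, 0.428 and 0 CPM in WT (adjusted p = 0.0726). Hgf, the ligand of Met, stood at 0, 3.17, 3.72 and 4.23 CPM in Fyn-KO and had no count in WT (adjusted p = 0.0543). Of the 5 genes of HGF and its activation, 2 were tested and 1 rose (2 without Fyn-KO replicate 1). That was Spint2, an inhibitor of the proteases that activate HGF, which reached 17.1 ± 8.69 CPM in Fyn-KO libraries and was without counts in WT, at least 76.6-fold higher (adjusted p = 0.0121).

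Co-receptors, which hold ligand or receptor at the cell surface, moved in both directions. Of 13, 11 were tested, 2 rose (18.2%, against 19% of all tested genes), 3 fell (27.3%, against 3.51%) and 6 did not pass. Without WT replicate 2, 5 rose and 4 fell. Sdc3, a heparan sulphate proteoglycan of neural cells, fell to 66.3 ± 16.6 CPM in Fyn-KO, against 835 ± 362 CPM in WT (log2 fold change -3.64 ± 0.39, edgeR adjusted p = 0.00775). Fgfrl1, an FGF-binding receptor without a kinase domain, fell to 43.2 ± 9.54 CPM in Fyn-KO, against 381 ± 44.5 CPM in WT (-3.25 ± 0.45, adjusted p = 0.0121). Cspg4, the NG2 proteoglycan of oligodendrocyte progenitors and mural cells, which binds PDGF-A and is also 1 of the 6 progenitor markers, fell to 46.5 ± 31.0 CPM in Fyn-KO, against 675 ± 415 CPM in WT (-3.77 ± 0.64, adjusted p = 0.0121). Sdc1 reached 193 ± 73.2 CPM in Fyn-KO libraries, against 11 counts over the 3 WT libraries, 757 times the WT mean (adjusted p = 0.0121). These 4 single calls were kept with each of the 7 libraries left out in turn. By limma-voom, an alternative described below, no co-receptor was called higher and 3 were called lower.

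Of 21 inhibitors and phosphatases of the receptors, 18 were tested, 5 rose (27.8%, against 19% of all tested genes), 1 fell (5.56%, against 3.51%) and 12 did not pass. Spry1, which is induced by ERK signalling and inhibits it, was the gene that fell, to 4.79, 1.92, 8.10 and 4.01 CPM in Fyn-KO, against 190.0, 126 and 285 CPM in WT (log2 fold change -5.56 ± 0.87, edgeR adjusted p = 0.0121). Cbl, a ubiquitin ligase of active receptors, reached 29.6 ± 8.20 CPM in Fyn-KO libraries, against 2 counts in WT, a ratio of pooled counts of 614 (95% exact interval 169.7 to 5079, adjusted p = 0.0121). Its relative Cblb reached 2.05 ± 0.992 CPM in Fyn-KO libraries and was without counts in WT, at least 9.19-fold higher (adjusted p = 0.0122, and 0.0504 without WT replicate 1). Ptpn2, a tyrosine phosphatase, reached 25.9 ± 5.13 CPM in Fyn-KO libraries, against 3 counts in WT (ratio 355, interval 121 to 1723, adjusted p = 0.0285). It did not pass when any 1 of the 4 Fyn-KO libraries was left out (highest adjusted p 0.0753). All 5 genes that rose stayed under 10 counts per WT library, and with 1 library left out 2 to 6 inhibitors rose. The number was 2 or 3 with any 1 Fyn-KO library left out and 2 without WT replicate 1, and 2 inhibitors fell without WT replicate 2.

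Of 29 adaptors and first effectors, 26 were tested, 1 rose (3.85%, against 19% of all tested genes), 3 fell (11.5%, against 3.51%) and 22 did not pass. Gab1, an adaptor of Met and Egfr, fell to 34.8 ± 13.6 CPM in Fyn-KO, against 443 ± 271 CPM in WT (log2 fold change -3.91 ± 0.71, edgeR adjusted p = 0.0121). The regulatory PI3-kinase subunits Pik3r1 and Pik3r2 fell as well. Pik3r1 stood at 123 ± 12.9 CPM in Fyn-KO libraries, against 406 ± 48.1 CPM in WT (-1.81 ± 0.39, adjusted p = 0.0127), and Pik3r2 at 37.5 ± 12.2 CPM in Fyn-KO against 171 ± 52.3 CPM in WT (-2.20 ± 0.61, adjusted p = 0.0335). Pik3r2 did not pass when any 1 of the 4 Fyn-KO libraries was left out (highest adjusted p 0.106). Plcg1, a phospholipase that docks on the receptors, reached 5.25 ± 1.44 CPM in Fyn-KO libraries and was without counts in WT, at least 23.5-fold higher (adjusted p = 0.0121). With 1 library left out, 1 to 7 adaptors rose (7 without WT replicate 2, 2 without WT replicate 1) and 2 to 5 fell (5 without WT replicate 1).

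The other 48 receptor tyrosine kinase genes give the background within the family. Of these, 34 were tested, 5 rose (14.7%, against 19% of all tested genes), 3 fell (8.82%, against 3.51%) and 26 did not pass, with a median log2 fold change of 0.33 (the same with genes without a WT count at their bound). Aatk, a kinase of neural cells, fell to 27.6, 21.4, 60.1 and 33.3 CPM in Fyn-KO, against 1132, 359 and 829 CPM in WT (log2 fold change -4.56 ± 0.64, edgeR adjusted p = 0.0121). Ror2, a Wnt5a receptor, reached 8.36 ± 1.17 CPM in Fyn-KO libraries, against 1 count in WT, a ratio of 345 (95% exact interval 61.4 to 13652, adjusted p = 0.0121). The ephrin receptors Ephb1 and Epha7 reached 6.19 ± 2.08 and 5.09 ± 2.03 CPM in Fyn-KO libraries and were without counts in WT, at least 27.7-fold and 22.8-fold higher (adjusted p = 0.0121 for both). The 5 that rose stayed under 10 counts per WT library, and with 1 library left out 4 to 10 rose (10 without WT replicate 3) and 1 to 3 fell (1 with any 1 Fyn-KO library or WT replicate 2 left out).

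**Figure D4:**
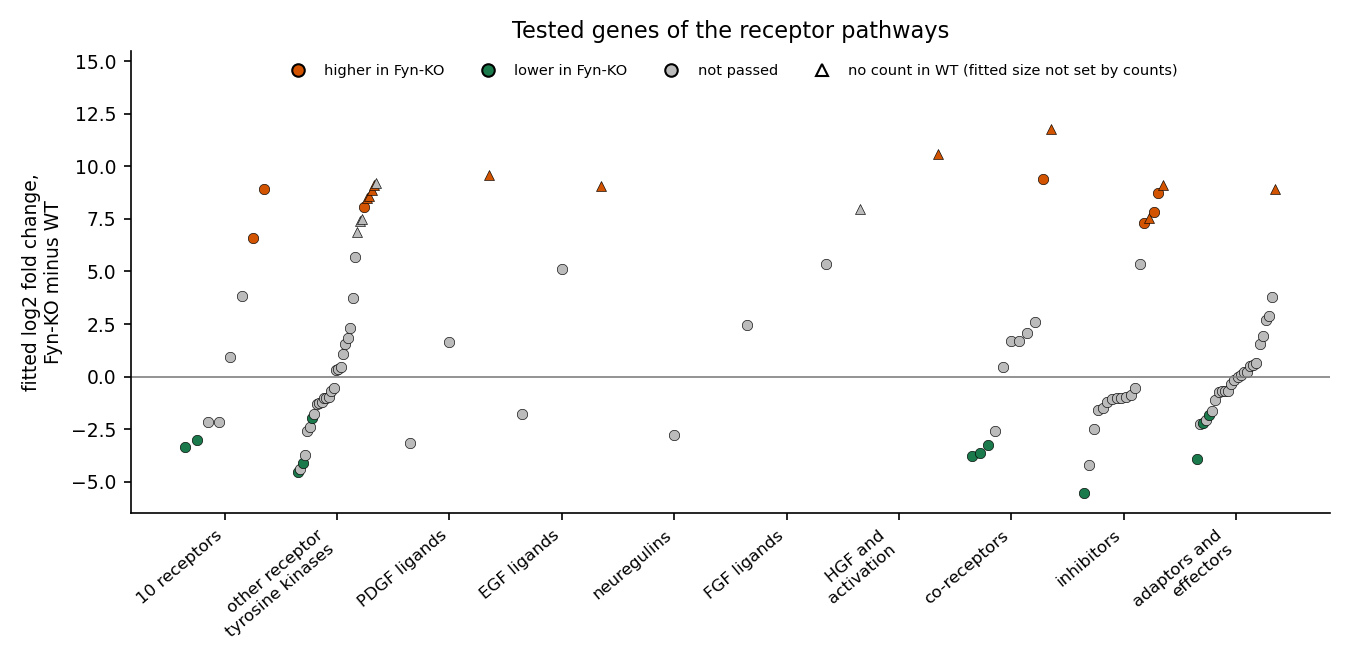
Fitted log2 fold change (Fyn-KO minus WT, edgeR) of every tested gene of the 10 receptors and of 9 lists of related genes, sorted within each list. Orange genes were called higher in Fyn-KO, green genes lower, grey genes did not pass, and triangles had no count in WT, so that counts set no size for them. The genes called higher sit above 6 on this scale and those called lower between -1.8 and -5.6.

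The genes most like each called receptor across the 7 libraries, by Pearson r of log2 of CPM plus 1, are given as a description. For Pdgfra they were Vcan, the proteoglycan versican (r = 0.992), and Polb, DNA polymerase beta (r = 0.992), and 103 of 12412 genes had an r above 0.95. Vcan stood at 132 to 192 CPM in Fyn-KO and 609 to 1269 CPM in WT. For Egfr they were Pcdhga9, a gamma protocadherin (r = 0.994), and Asic2, an acid-sensing ion channel (r = 0.990), with 121 genes above 0.95. Gamma protocadherins share their 3' exons, so tags cannot be assigned to Pcdhga9 rather than its neighbours. For Erbb2 they were Upk3b, a uroplakin (r = 0.997), and AI467606 (r = 0.996), and for Fgfr2 they were Ube2w, a ubiquitin-conjugating enzyme (r = 0.999), and Trank1 (r = 0.999), with 177 and 1262 genes above 0.95. The 7 points of each r share the depth and the undetected genes of their libraries, and a gene that separates the groups has a high r with others that do.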

How the data were processed

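Per the labels, RNA of the sorted cells was column-purified and QuantSeq 3' mRNA libraries were made. Per the submitters' processing notes, Bowtie2, bedtools, DESeq2 1.32.0 and the build mm10 (GRCm38) were used. Not given in the sources used here are the annotation, the strand and what makes the table, in the authors' word, modified. The deposited values are whole-number counts per gene and library. One WT column was joined to its group alone, since its name fits 2 WT samples.

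Counts were filtered with filterByExpr (minimum count 10, minimum total 15), scaled by TMM factors and tested in edgeR 4.0.16 (R 4.3.3) by the quasi-likelihood F test over all 13122 genes kept, two-sided, with Benjamini-Hochberg adjustment. The SE was taken as the size of the log2 fold change divided by root F. CPM are of the library total, and folds against a group without counts use the mean of a floor of 3 counts per library. Such folds cover counting error only, not genes that a library failed to detect. Alternatives included DESeq2 1.42.0 and limma-voom (limma 3.58.1). The test was tried on simulated data. Gene coordinates are from GENCODE M21. Named genes are Fyn, the 10 receptors, up to 4 called genes of each list by p (or the gene with the lowest p), and the 2 genes most like each called receptor. Receptors and lists were chosen with earlier results of these data known.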

Additional observations from a re-analysis of the deposited data

Results flagged for a closer look

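Within the 4 Fyn-KO libraries, replicate 3 stood apart from the others for 2 of the 8 receptors with counts. Its Pdgfra level was 134 CPM, against 69.2 to 74.0 CPM in the other Fyn-KO libraries. Its Fgfr3 level was 13.6 CPM, against 4.23 to 5.75 CPM. The gap to the nearest library, divided by the range of the group, was above Dixon's 95% critical value for 4 samples, which chance alone passes in about 1 of 20 groups. The same library had the highest share of Rn45s counts (16.6%, against 10.5 to 10.98% in the other Fyn-KO libraries) and the highest sum of oligodendrocyte progenitor markers, and the part of either in these values was not tested.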

How the results depend on the processing

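Pdgfra kept its direction and its call in all 16 alternatives (log2 fold change -2.70 to -3.34), and Egfr in 15 of 16. Of 525 comparisons of a gene's main value with an alternative, 432 kept direction and call, 88 lost the call, 1 gained it and 4 turned. The 4 were Pdgfrb with a replicate block (8.08), in limma-voom with quality weights (6.69) and without WT replicate 3 (11.55, the top of a range from -2.73 with 1 library left out), and Fgfr1 in limma-voom (4.11). The receptors called higher numbered 1 with no filter and 0 with a replicate block, among genes detected in both groups and in limma-voom, and 1 to 3 with 1 library left out, the 1 being without Fyn-KO replicate 1 or 2 or WT replicate 1. In the genes detected in both groups neither Erbb2 nor Fgfr2 was tested. With 1 library left out the receptors called lower numbered 2, and with the block 1 (Egfr adjusted p = 0.206, Erbb2 0.295, Fgfr2 0.218). DESeq2 called Met as well (adjusted p = 0.0264) and gave no adjusted p for Pdgfrb. In limma-voom no gene was called higher in the lists of ligands, co-receptors, inhibitors, adaptors and other receptor tyrosine kinases. Lower there were 3 co-receptors, 1 inhibitor, 2 adaptors or effectors and 1 other receptor tyrosine kinase.

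Over all genes, 2493 were higher and 461 lower, against 52 and 139 among genes detected in both groups, 188 and 135 with the block, 24 and 320 in limma-voom, and 3699 and 774 in DESeq2. With 1 library left out, 2190.0 to 4585 were higher (the highest without WT replicate 2) and 247 to 839 lower. The cause of these moves was not tested. Same-numbered libraries did not deviate together (r = -0.0142, -0.0002 and -0.0205), so the numbers were not read as pairs. The replicate numbers, also used for the block, are those of the deposited columns. Columns WT1 and WT2 belong to samples titled WT3 and WT4, so a shared number need not mean a shared origin. Changing the scaling moved the median of all genes by under 0.1, from 0.45 to 0.43 and 0.44. WT libraries were weighted 0.166 to 0.319 in limma-voom and Fyn-KO libraries 1.85 to 4.24. By counting error alone, a receptor under about 0.3 CPM cannot be told from none at this depth. In WT the limit was higher. There, 33.9% of the genes that reached 50 CPM in 1 library had no count in another.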

Other observations

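Other receptor tyrosine kinases were abundant without passing the test, and the following were chosen after their values were seen. Axl, a receptor of Gas6, stood at 210.1, 196, 235 and 240 CPM in Fyn-KO libraries, against 0, 14.5 and 0.420 CPM in WT, without overlap (edgeR adjusted p = 0.0553). Igf1r, the receptor of insulin-like growth factors, stood at 418, 454, 326 and 396 CPM in Fyn-KO libraries, against 1.17, 103 and 188 CPM in WT (adjusted p = 0.382). Kdr, the endothelial VEGF receptor, stood at 66.2 to 120.1 CPM in Fyn-KO libraries, against 0.391, 0.0611 and 307 CPM in WT (adjusted p = 0.902). As with Pdgfrb, WT replicate 3 was the WT library with Kdr.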
